A study of Homo sapiens with 24 samples.

Results

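The EGF receptor family and its ligands were followed in SK-MES1 cells, an established cell line from a squamous cell carcinoma of the lung (LUSC), after stimulation with TGFβ. The 9 genes were taken as a fixed list of 3 receptors, EGFR, ERBB2 and ERBB3, and 6 ligands, AREG, EREG, HBEGF, TGFA, BTC and NRG1. They are 9 of 34834 genes with a quantified transcript, and all 9 were among the 17453 genes that passed the count filter of at least 10 counts in at least 3 libraries. Their lowest count in any of the 24 libraries was 109, for HBEGF.

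Low-passage cells were starved of serum for 3 h, after which 2 ng/ml TGFβ1 was added or no agent was given, and total RNA was sequenced at 0, 8, 24 and 48 h in triplicate. This gave 8 groups of 3 libraries, untreated and TGFβ-treated cells at each time point. All groups shared the line and the starvation step. Libraries held between 46613589 and 77964234 estimated counts. The cells of this model are 1 line grown without stroma, and ligands from other cell types are not part of it.

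ERBB receptors are transmembrane tyrosine kinases that pair on ligand binding and pass the signal to the RAS, ERK and PI3K pathways. EGFR binds amphiregulin (AREG), epiregulin (EREG), HB-EGF (HBEGF), TGFα (TGFA) and betacellulin (BTC), ERBB3 binds neuregulin 1 (NRG1) and has very weak kinase activity, and ERBB2 has no known ligand of its own and serves as partner of the others. The ligands are made as membrane-anchored precursors that metalloproteinases of the ADAM family release from the cell surface. In squamous epithelium and its tumours this family is a main driver of growth.

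Several checks of the libraries bear on the values below. The TGFβ target genes PMEPA1, SMAD7 and TGFBI were higher in TGFβ-treated cells at 8, 24 and 48 h, with log2 differences of 1.82 to 4.53. The epithelial markers KRT8, KRT18 and KRT19 were at 242 TPM or more in every library. EPCAM of the same list was at 21.6 to 37.0 TPM, CDH1 at 0.969 to 5.74 TPM and CDH3 at 0.649 to 1.89 TPM. Of the squamous markers TP63 reached 7.69 to 37.5 TPM, but KRT5, KRT6A, KRT14 and DSG3 stayed at or below 0.102 TPM. Only 5 of 9 squamous markers reached 1 TPM anywhere. Of 5 fibroblast markers, 4 reached 1 TPM, and their summed level was 198 to 308 TPM in untreated cells and 2083 to 2381 TPM in TGFβ-treated cells at 48 h, almost all of it COL1A1, while COL1A2 stayed at or below 0.221 TPM. At 8 and 24 h the TGFβ-treated libraries summed to 779 to 852 and 1232 to 1736 TPM, and the part of these markers in the results was not tested. Of 5 leukocyte markers 2 reached 1 TPM (summed 9.34 to 42.1 TPM). These were CD68 at 7.64 to 40.2 TPM and PTPRC at 1.26 to 2.10 TPM, while CD3E was at 0 in every library. Of 4 endothelial markers 1 reached 1 TPM (summed 0.928 to 4.82 TPM), and no marker of lung alveolus or neuroendocrine cells did. The names of the deposited files carry 4 codes, 1 for the 0 and 8 h libraries and 1 for the 24 and 48 h libraries of each arm, so code and treatment cannot be told apart at a single time point, whereas a change from 0 to 8 h or from 24 to 48 h lies within codes. Within an arm, levels at 24 or 48 h set against 0 or 8 h cross codes. The change from 0 to 48 h within an arm was not tested. Library number 2 of the TGFβ arm stood apart from its group at 0 h and 24 h, with a chi-square per gene of 40.27 to 60.54 at 0 h and of 35.69 to 47.11 at 24 h, against 3.17 to 22.68 in pairs of the other groups. To a smaller extent the untreated library numbered 2 did so as well. Its pairs were at 14.69 and 22.68 against 9.14 at 0 h, and at 18.94 and 20.12 against 4.13 at 24 h.

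EREG, AREG and BTC lie next to each other on chromosome 4, within 429.4 kb from the start of EREG to the end of BTC. In GRCh38 EREG spans chr4:74365145-74388749 (+ strand), AREG chr4:74445136-74455005 (+ strand) and BTC chr4:74744759-74794523 (- strand), with 56.4 kb between EREG and AREG and 289.8 kb between AREG and BTC. HBEGF lies at chr5:140332843-140346603 (- strand), TGFA at chr2:70447284-70554193 (- strand), EGFR at chr7:55019017-55211628 (+ strand), ERBB3 at chr12:56076799-56103505 (+ strand) and ERBB2 at chr17:39687914-39730426 (+ strand).

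The promoter sequences of the 3 neighbouring ligands, which were lower in TGFβ-treated cells at 24 and 48 h, and of HBEGF, which was higher at 8 h and lower at 48 h, are shown as the 250 bases before the RefSeq transcription start (GRCh38.p14, 5′ to 3′ on the gene's strand). RefSeq promoters were matched for 7 of the 9 genes, not for ERBB3 and NRG1. The windows are chr4:74444886-74445135 (+) for AREG, chr4:74364895-74365144 (+) for EREG, chr4:74794524-74794773 (-) for BTC and chr5:140346604-140346853 (-) for HBEGF, and all 4 end just before the first exon. Capitals mark matches, on either strand, to 7 short motifs. The AP-1 element was searched as TGANTCA. The cAMP response element was searched as TGACGTCA. A palindromic SMAD element was searched as GTCTAGAC. A short SMAD-type element was searched as CAGACA. The E-box bound by SNAI and ZEB factors was searched as CACCTG. The GC box was searched as GGGCGG. The TATA box was searched as TATAAA.
AREG: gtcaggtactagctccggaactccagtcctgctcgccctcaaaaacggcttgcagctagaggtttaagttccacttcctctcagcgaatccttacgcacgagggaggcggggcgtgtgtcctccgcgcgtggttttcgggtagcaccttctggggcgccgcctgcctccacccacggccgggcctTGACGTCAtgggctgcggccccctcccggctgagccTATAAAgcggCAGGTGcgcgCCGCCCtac
EREG: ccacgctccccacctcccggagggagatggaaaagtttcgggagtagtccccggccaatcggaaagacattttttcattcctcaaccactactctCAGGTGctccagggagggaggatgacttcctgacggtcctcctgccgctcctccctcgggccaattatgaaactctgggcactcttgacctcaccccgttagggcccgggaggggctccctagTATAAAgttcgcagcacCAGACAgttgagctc
BTC: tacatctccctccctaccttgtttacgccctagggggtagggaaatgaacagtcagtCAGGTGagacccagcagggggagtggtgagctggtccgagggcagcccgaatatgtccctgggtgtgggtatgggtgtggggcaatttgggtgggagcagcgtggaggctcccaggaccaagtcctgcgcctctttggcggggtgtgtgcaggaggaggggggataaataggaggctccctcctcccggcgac
HBEGF: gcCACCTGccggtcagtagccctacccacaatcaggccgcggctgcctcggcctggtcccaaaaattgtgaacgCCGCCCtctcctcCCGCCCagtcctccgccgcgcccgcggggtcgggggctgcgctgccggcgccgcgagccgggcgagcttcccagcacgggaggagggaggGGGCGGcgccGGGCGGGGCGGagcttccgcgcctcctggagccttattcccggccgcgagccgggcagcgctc
Counted from the transcription start, the AREG window held TGACGTCA at -65, TATAAA at -29 and, on the opposite strand, CACCTG at -19 and GGGCGG at -9. The EREG window held TATAAA at -32, CAGACA at -15 and, on the opposite strand, CACCTG at -155. The BTC window held a single match, CACCTG at -193 on the opposite strand. The HBEGF window held 5 matches to GGGCGG, of which a pair overlapped by 1 base, and CACCTG at -248. Of 35116 RefSeq promoter windows of the same length, TGACGTCA was present in 1.65%, TATAAA in 10.7%, CAGACA in 13.6%, CACCTG in 17.5% and GGGCGG in 42.6%. TGANTCA was present in 6.57% of all windows and, among the members, in the ERBB2 window and the downstream one of the 2 EGFR windows. GTCTAGAC, present in 0.182% of all windows, was in none of the windows of the members examined, which leave out ERBB3 and NRG1. These matches describe letters only.

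Levels are given in TPM, transcript abundances scaled by length and by the library total, which can be compared between genes. At 0 h EREG was the most abundant member in untreated cells, at 210.2 ± 21.7 TPM (SD, n = 3), followed by EGFR at 65.4 ± 0.796 TPM and AREG at 27.5 ± 0.760 TPM. ERBB2, NRG1, TGFA, BTC and ERBB3 followed at 16.7, 14.1, 12.9, 12.6 and 6.49 TPM, and HBEGF was lowest at 2.08 ± 0.0300 TPM. In this order the libraries of TGFA and BTC overlapped, while every other pair of neighbours was separate. At 48 h the order in untreated cells was EREG, AREG, EGFR, ERBB2, TGFA, BTC, NRG1, ERBB3 and HBEGF, and only BTC and NRG1 overlapped. In TGFβ-treated cells at 48 h AREG had moved behind EGFR, ERBB2, TGFA and NRG1, at 13.8 ± 0.944 TPM, with libraries that overlapped those of NRG1. There, TGFA and NRG1 overlapped, as did BTC and ERBB3.

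**Figure D1:**
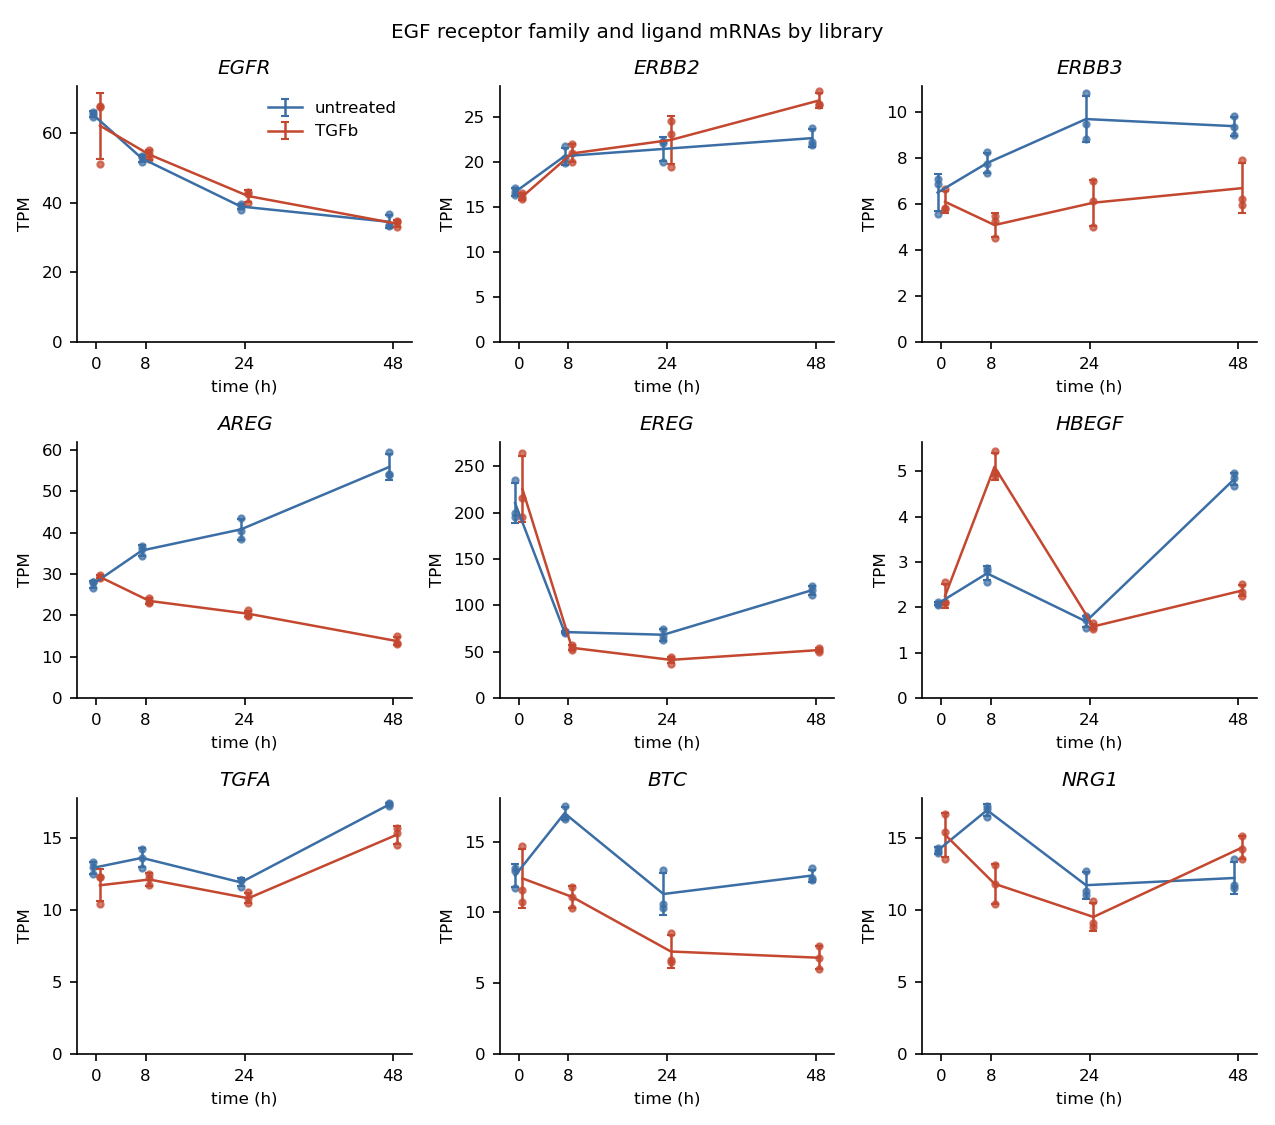
TPM of the 9 members against time in h, with 1 point per library and lines through the mean ± SD of 3 libraries, untreated cells in blue and TGFβ-treated cells in red. AREG separated steadily to 55.9 against 13.8 TPM at 48 h, HBEGF crossed from 5.10 against 2.75 TPM at 8 h to 2.37 against 4.83 TPM at 48 h, and EGFR went from 65.4 and 62.1 TPM at 0 h to 34.5 and 34.0 TPM at 48 h.

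Differences between the arms are given as log2 differences, TGFβ-treated minus untreated, of counts per gene scaled by TMM, from limma voom. A difference was called when the Benjamini-Hochberg adjusted p over all 17453 genes was below 0.01. At 0 h none of the 9 members was called, as was true of 0 genes in all (0%), although 800 genes had an unadjusted p below 0.05, and edgeR called 0 and DESeq2 8 genes over the whole table. The members' differences at 0 h were between -0.06 and 0.13, with an adjusted p of 0.9998 for each in limma voom. In TPM, however, all 3 TGFβ libraries were already above the untreated ones for AREG at 0 h and below them for TGFA.

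At 8 h 5 of 9 members were called, HBEGF higher and ERBB3, AREG, BTC and NRG1 lower, against 16.4% of all genes (9.12% higher and 7.26% lower). At 24 h it was 5 of 9, ERBB3, AREG, EREG, BTC and NRG1, all lower (NRG1 turned to 0.09 when scaled to the reference genes introduced below), against 29.3% of all genes (15.4% higher and 13.8% lower). At 48 h 7 of 9 were called, NRG1 higher and ERBB3, AREG, EREG, HBEGF, TGFA and BTC lower (TGFA turned to 0.16 under that scaling), against 32.6% of all genes (16.1% higher and 16.4% lower). The F-test over the 3 time points called 7 of 9 against 42.5% of all genes, the exceptions being EGFR (adjusted p = 0.0751) and ERBB2 (adjusted p = 0.0454). The TGFA call in this test (limma voom adjusted p = 0.00202) was lost without the untreated 48 h library numbered 2 or the TGFβ 48 h library numbered 2 or 3 (adjusted p = 0.0120, 0.0125 and 0.0134) and with length-scaled counts (0.0176). EGFR was called without the TGFβ 0 h library numbered 1 (limma voom adjusted p = 0.000345) and ERBB2 without the TGFβ 24 h library numbered 2 (adjusted p = 0.00444). The members' median log2 differences were -0.30, -0.27 and -0.52 at 8, 24 and 48 h, and those of all genes -0.02, -0.01 and -0.01. When libraries were instead scaled to the summed counts of 3 reference genes (GUSB, HPRT1 and GAPDH), the median of all genes itself was 0.35 at 24 h and 0.38 at 48 h between arms, and 0.49 and 0.51 from 24 to 48 h in untreated and TGFβ-treated cells. The counts of the 3 reference genes were summed without weights, so the gene with the most counts weighed most. The share of each in the sum is not given here. Unless that scaling is named, the differences below are relative to a median near 0. In these bulk libraries a lower level in every cell and fewer cells with the mRNA cannot be told apart.

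**Figure D2:**
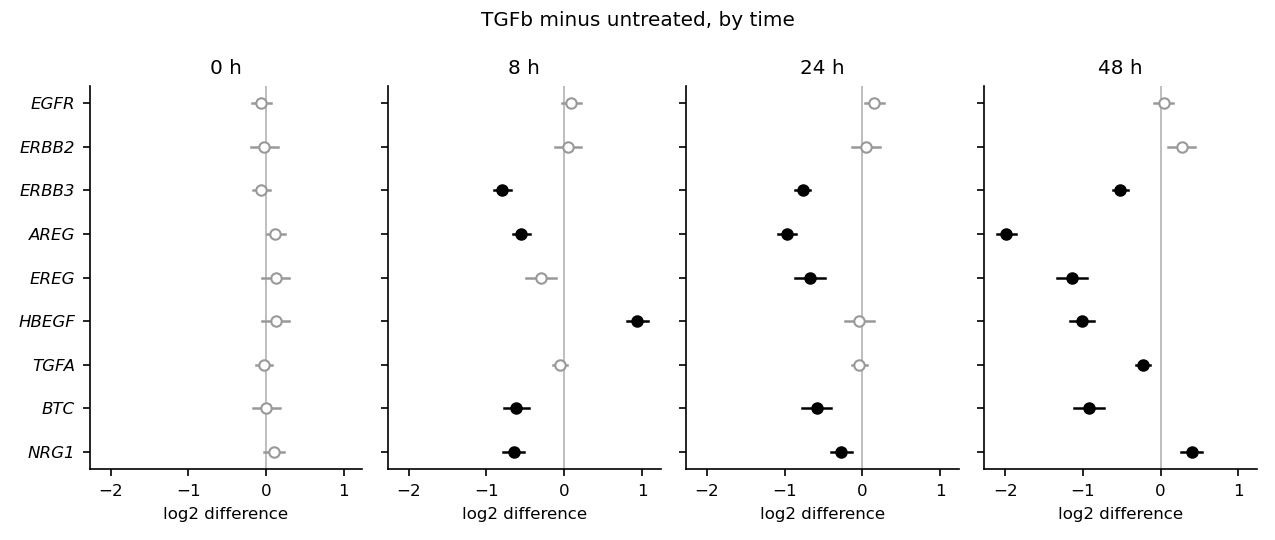
Log2 difference, TGFβ-treated minus untreated, of each member at 0, 8, 24 and 48 h (limma voom), with 95% intervals; filled black symbols have an adjusted p below 0.01. AREG moved from -0.55 at 8 h to -1.99 at 48 h, and HBEGF and NRG1 changed side between 8 and 48 h, whereas scaling to the reference genes puts TGFA at 48 h and HBEGF, TGFA and NRG1 at 24 h above 0. On a TPM scale, log2(TPM + 1), NRG1 at 48 h was 0.21 and not called (limma adjusted p = 0.0717).

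Among the receptors, EGFR mRNA was lower at later times in both arms and passed the test between arms at none of the 4 times. Untreated libraries measured 66.1, 64.5 and 65.5 TPM at 0 h, 53.1, 53.4 and 51.6 TPM at 8 h, 39.1, 39.6 and 38.0 TPM at 24 h and 36.7, 33.7 and 33.3 TPM at 48 h. TGFβ-treated libraries measured 51.2, 67.4 and 67.7 TPM at 0 h, 55.2, 52.4 and 53.9 TPM at 8 h, 42.4, 43.2 and 40 TPM at 24 h and 34.8, 34.4 and 33.0 TPM at 48 h. EGFR-201 carried 95.2% to 98.1% of the TPM. The arms overlapped at 0, 8 and 48 h, and at 24 h all 3 TGFβ libraries were above the untreated ones. At 48 h the mean was 0.528 of the 0 h mean in untreated and 0.548 of it in TGFβ-treated cells, both across file codes. The arm difference was 0.09 (95% interval -0.03 to 0.21) at 8 h, 0.15 (0.03 to 0.28) at 24 h and 0.04 (-0.09 to 0.16) at 48 h, with limma voom adjusted p of 0.277, 0.0445 and 0.681. Scaled to the reference genes the 24 and 48 h values were 0.52 and 0.43, both called (adjusted p = 0.000226 and 0.00159). Without the TGFβ 0 h library numbered 1, which is the low value of 51.2 TPM, the 24 h difference was still 0.15 but was called (limma voom adjusted p = 0.000364). Within arms EGFR fell by 0.35 from 0 to 8 h in untreated cells and by 0.20 in TGFβ-treated cells, the latter (limma voom adjusted p = 0.00847) being lost on leaving out any 1 of most libraries, most of all the TGFβ 0 h libraries numbered 2 and 3 (adjusted p = 0.0557 and 0.0665). Between 24 and 48 h it fell by 0.23 in untreated and by 0.35 in TGFβ-treated cells, a direction that turned to 0.26 and 0.16 when scaled to the reference genes. The untreated call was also lost without any 1 of the untreated 24 h libraries numbered 1 and 2 and the 48 h libraries numbered 2 and 3 (limma voom adjusted p = 0.0111 to 0.0176).

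ERBB2, the partner receptor without a ligand, had its highest levels at 48 h in TGFβ-treated cells. Untreated libraries held 16.7, 16.4 and 17.2 TPM at 0 h and 23.8, 21.9 and 22.3 TPM at 48 h. TGFβ-treated libraries held 16.2, 16.6 and 15.9 TPM at 0 h and 27.9, 26.5 and 26.4 TPM at 48 h. At 48 h the TGFβ libraries were all above the untreated ones, and at 0, 8 and 24 h the arms overlapped. The transcripts ERBB2-201 and ERBB2-204 made up 26.5% to 38.2% and 30.6% to 40.9% of the TPM in the group means. The 48 h difference of 0.27 (95% interval 0.10 to 0.44) just missed the threshold in limma voom (adjusted p = 0.0103) and passed it in DESeq2 (adjusted p = 0.00516). It also passed without any 1 of 7 libraries of the other time points (limma voom adjusted p = 0.00191 without the TGFβ 24 h library numbered 2). Scaled to the reference genes the 24 and 48 h differences were 0.41 and 0.66 and both were called (adjusted p = 1.81e-07 and 1.06e-10). In TGFβ-treated cells the rise from 0 to 8 h, 0.36, was called (limma voom adjusted p = 0.00154), but not without the TGFβ 0 h library numbered 2 (0.27, adjusted p = 0.0141). Exons of ERBB2 overlap those of MIEN1 (60.2 to 98.8 TPM) and PGAP3 (7.59 to 14.7 TPM) on the opposite strand, and since no strand setting is given in the sources used here, reads in the overlap cannot be told apart.

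ERBB3, the neuregulin receptor, was the one receptor called, and it was lower in TGFβ-treated cells at 8, 24 and 48 h. At 8 h untreated libraries held 8.24, 7.35 and 7.72 TPM and TGFβ-treated libraries 5.46, 4.51 and 5.27 TPM. At 24 h the values were 8.80, 10.8 and 9.48 TPM against 5.01, 7.0 and 6.13 TPM. At 48 h they were 8.99, 9.33 and 9.80 TPM against 5.93, 6.20 and 7.92 TPM. No TGFβ library reached the lowest untreated one at these times, whereas at 0 h the arms overlapped, with 5.56 to 7.07 and 5.79 to 6.63 TPM. The log2 differences were -0.80 (SE 0.049), -0.77 (SE 0.047) and -0.52 (SE 0.047), with limma voom adjusted p of 5.93e-11, 1.79e-11 and 8.51e-09. Scaled to the reference genes the 48 h difference was -0.13 and no longer called (adjusted p = 0.138). From 0 to 8 h ERBB3 rose by 0.47 in untreated cells and fell by 0.26 in TGFβ-treated cells, and both changes were called in limma voom (adjusted p = 1.72e-07 and 0.000298). On a TPM scale, log2(TPM + 1), these changes were 0.23 and -0.22 and were not called (limma adjusted p = 0.136 and 0.134).

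The ERBB3 TPM was spread over several transcripts. ERBB3-201 (ENST00000267101), the canonical coding transcript, made up between 29.1% and 53.6% of the gene's TPM in the group means, and the other transcripts at 10% or more in some group were the coding ERBB3-202 and ERBB3-203 and the retained-intron forms ERBB3-205 and ERBB3-206. In untreated cells ERBB3-201 was at 2.28 TPM at 0 h (range 2.12 to 2.53) and, across file codes, at 5.02 TPM at 48 h (4.66 to 5.28). In TGFβ-treated cells it was 2.28 TPM at 0 h (2.15 to 2.37), 1.48 TPM at 8 h (1.25 to 1.93) and 3.37 TPM at 48 h (3.16 to 3.56). The arms were separate for this transcript at 8, 24 and 48 h, and the sum over ERBB3 contains smaller forms whose estimates ran from 0 to over 1 TPM within a group. Another coding gene, ENSG00000257411, shares exon sequence with ERBB3 on the same strand and was estimated at 0 to 3.34 TPM, with 3.34 TPM in the TGFβ 0 h library numbered 2, so the ERBB3 values carry an uncertain split of reads.

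**Figure D3:**
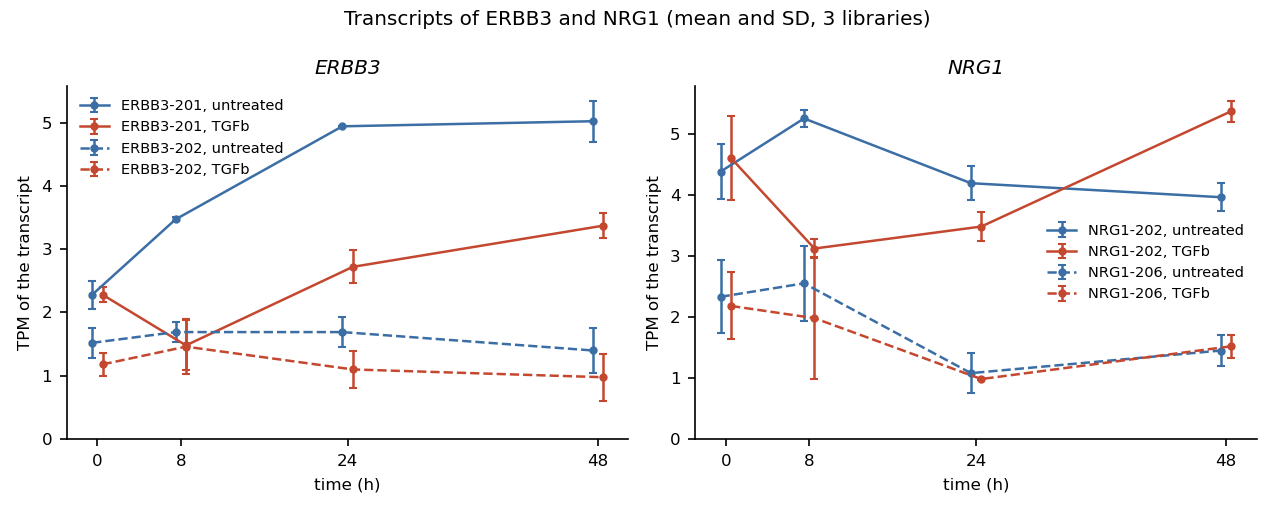
TPM of the ERBB3 transcripts ERBB3-201 and ERBB3-202 and of the NRG1 transcripts NRG1-202 and NRG1-206 against time in h, as mean ± SD of 3 libraries, untreated in blue and TGFβ-treated in red. ERBB3-201 reached 5.02 TPM in untreated and 3.37 TPM in TGFβ-treated cells at 48 h, and NRG1-202 crossed from 3.12 against 5.25 TPM at 8 h to 5.37 against 3.96 TPM at 48 h.

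Among the ligands, AREG, which encodes amphiregulin, had the largest difference of the 9 genes at 24 and 48 h. Its mean TPM was higher at each later time in untreated cells and lower at each later time in TGFβ-treated cells. At 0 h untreated libraries held 28, 28 and 26.7 TPM and TGFβ-arm libraries 29.0, 29.7 and 29.3 TPM. At 8 h they held 36.8, 36.0 and 34.3 TPM against 22.9, 23.2 and 24.2 TPM. At 24 h they held 38.5, 43.6 and 40.4 TPM against 19.9, 21.3 and 20.2 TPM. By 48 h the arms were far apart and tight within themselves. Untreated libraries then held 53.9, 59.6 and 54.3 TPM and TGFβ-treated libraries 13.4, 13.2 and 14.9 TPM, a ratio of means of 4.04. The log2 differences were -0.55 (SE 0.054), -0.97 (SE 0.055) and -1.99 (SE 0.060), with limma voom adjusted p of 8.00e-08, 7.34e-12 and 1.13e-16. Scaled to the reference genes the 48 h difference was -1.60. Under that scaling the changes in TGFβ-treated cells were -0.24 from 0 to 8 h and -0.11 from 24 to 48 h. Neither was called (limma voom adjusted p = 0.0358 and 0.304). Relative to 0 h, and across file codes, the mean at 48 h was 2.03-fold in untreated and 0.471-fold in TGFβ-treated cells. A single transcript, AREG-201, carried between 98.4% and 99.8% of the TPM, so the gene sum is in effect that transcript.

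EREG, which encodes epiregulin, fell in both arms between 0 and 8 h and was lower in TGFβ-treated cells at 24 and 48 h. At 0 h untreated libraries held 200, 235.1 and 195.4 TPM and the TGFβ arm 195.0, 264.7 and 216.0 TPM. At 8 h the values were 71.0, 71.9 and 70.7 TPM against 57.1, 51.7 and 53.8 TPM. The fall from 0 to 8 h was called in both arms, by 1.67 in untreated and by 2.09 in TGFβ-treated cells (limma voom adjusted p = 6.31e-12 and 6.00e-14). At 24 h libraries held 62.6, 75.0 and 67.3 TPM against 42.6, 43.8 and 37.1 TPM. At 48 h they held 111.5, 120.9 and 116.5 TPM against 52.3, 49.4 and 53.6 TPM. The arms were separate from 8 h onwards, and EREG-201 carried 90.8% to 96.5% of the TPM. The 8 h difference of -0.30 (SE 0.091) was not called in limma voom (adjusted p = 0.0201) but was in DESeq2 (adjusted p = 0.00688) and without the high TGFβ 0 h library numbered 2 (limma voom adjusted p = 0.00496). The differences at 24 h, -0.67 (SE 0.093), and at 48 h, -1.14 (SE 0.091), were called (limma voom adjusted p = 5.19e-06 and 1.13e-09), although scaled to the reference genes the 24 h value was -0.30 (adjusted p = 0.0784). Between 24 and 48 h EREG rose by 0.73 in untreated cells (limma voom adjusted p = 1.20e-06). The change of 0.26 in TGFβ-treated cells was not called (limma voom adjusted p = 0.0394) but was on the log2(TPM + 1) scale (0.33, limma adjusted p = 0.00972).

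BTC, which encodes betacellulin and is the third ligand gene on chromosome 4, was lower in TGFβ-treated cells at all 3 later times. At 8 h untreated libraries held 16.6, 16.7 and 17.5 TPM and TGFβ-treated libraries 11.8, 10.3 and 11.1 TPM. At 24 h they held 10.6, 13.0 and 10.3 TPM against 6.49, 8.58 and 6.66 TPM. At 48 h they held 13.1, 12.4 and 12.3 TPM against 6.03, 6.75 and 7.63 TPM. The arms did not overlap at these times and did so at 0 h, with 11.7 to 13.1 TPM in untreated and 10.7 to 14.7 TPM in TGFβ-arm libraries. The log2 differences were -0.62 (SE 0.080), -0.59 (SE 0.090) and -0.92 (SE 0.092), with limma voom adjusted p of 3.93e-06, 1.75e-05 and 4.40e-08, and scaled to the reference genes the 24 h value was -0.22 (adjusted p = 0.182). The coding transcripts BTC-201 and BTC-202 kept shares of 77.6% to 82.3% and 17.7% to 22.4% across the 8 groups.

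HBEGF, the least abundant ligand, was higher in TGFβ-treated cells at 8 h and lower at 48 h. At 8 h TGFβ-treated libraries held 5.45, 4.97 and 4.89 TPM and untreated libraries 2.57, 2.8 and 2.87 TPM. At 24 h they held 1.53, 1.65 and 1.57 TPM against 1.55, 1.80 and 1.72 TPM. At 48 h they held 2.26, 2.51 and 2.35 TPM against 4.96, 4.86 and 4.68 TPM. The arms were separate at 8 h in one direction and at 48 h in the other, and they overlapped at 0 and 24 h. The log2 difference was 0.94 (SE 0.066) at 8 h, -0.04 (SE 0.091; 0.32 when scaled to the reference genes) at 24 h and -1.01 (SE 0.074) at 48 h, with limma voom adjusted p of 4.28e-10, 0.740 and 3.11e-10. HBEGF-201 carried 97.3% to 100% of the TPM. The highest mean was at 8 h in TGFβ-treated cells, 2.27-fold over 0 h, and at 48 h in untreated cells, 2.32-fold over 0 h across file codes. The untreated rise from 0 to 8 h, 0.35 (limma voom adjusted p = 0.00147), was not called without the untreated 8 h library numbered 3 (0.31, adjusted p = 0.0103).

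NRG1 (chr8:31639222-32855666, + strand), the ERBB3 ligand, also changed side, in the order opposite to HBEGF. At 8 h untreated libraries held 16.4, 17.0 and 17.2 TPM and TGFβ-treated libraries 13.1, 10.4 and 11.8 TPM. At 24 h they held 12.7, 11.3 and 11.0 TPM against 10.6, 9.10 and 8.82 TPM. At 48 h they held 13.5, 11.7 and 11.5 TPM against 15.1, 13.5 and 14.2 TPM. TGFβ-treated libraries were all lower at 8 and 24 h, and at 48 h the arms overlapped around 13.5 TPM. The log2 differences in counts were -0.65 (SE 0.063), -0.27 (SE 0.066) and 0.40 (SE 0.065), with limma voom adjusted p of 6.48e-08, 0.00217 and 3.57e-05. On the log2(TPM + 1) scale the 24 h value was -0.27 and the 48 h value 0.21, and neither was called (limma adjusted p = 0.0211 and 0.0717), and the 24 h direction turned to 0.09 when scaled to the reference genes. The 24 h call was also lost without the TGFβ 24 h library numbered 2 (-0.24, limma voom adjusted p = 0.0125) or numbered 3 (-0.25, adjusted p = 0.0148). The transcript with the largest share, NRG1-202 (ENST00000356819), made up 26.7% to 37.7% of the TPM and was at 3.74 to 4.2 TPM in untreated and 5.24 to 5.56 TPM in TGFβ-treated libraries at 48 h, without overlap. NRG1-203, NRG1-206, NRG1-211 and NRG1-212 had smaller shares, which in their highest groups were 17.4%, 16.6%, 17.2% and 10%.

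TGFA, the ligand TGFα, was called at 48 h alone, and its transcripts TGFA-201 and TGFA-203 carried 69.8% to 79.2% and 15% to 22.8% of the TPM. At 48 h untreated libraries held 17.2, 17.4 and 17.3 TPM and TGFβ-treated libraries 15.3, 15.7 and 14.5 TPM. The TGFβ libraries were below the untreated ones at all 4 times, 0 h included, with 10.4 to 12.3 TPM against 12.5 to 13.3 TPM. The log2 differences were -0.05 (95% interval -0.15 to 0.04) at 8 h, -0.04 (-0.14 to 0.06) at 24 h and -0.23 (-0.32 to -0.13) at 48 h, of which the last was called (limma voom adjusted p = 0.000405), but not on the log2(TPM + 1) scale (-0.18, limma adjusted p = 0.0222), and scaled to the reference genes the 24 h value turned to 0.33 and the 48 h value to 0.16. Between 24 and 48 h TGFA rose in both arms, by 0.49 in untreated and by 0.30 in TGFβ-treated cells (limma voom adjusted p = 3.37e-08 and 4.06e-05).

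Changes within file codes were tested as a difference of differences, first from 0 to 8 h. Of the 9 members 5 were called, against 7.88% of all genes. The arm difference shifted by -0.73 for ERBB3, -0.67 for AREG, -0.62 for BTC and -0.76 for NRG1 and by 0.82 for HBEGF, with limma voom adjusted p of 1.74e-07, 1.85e-06, 0.000623, 2.95e-06 and 9.37e-06. For ERBB3 and BTC this call was lost on the log2(TPM + 1) scale (-0.45 and -0.54, limma adjusted p = 0.0918 and 0.0329). EREG, at -0.42, was not called in limma voom (adjusted p = 0.0261), but was in DESeq2 (-0.44, adjusted p = 0.00740) and without the untreated 0 h library numbered 2 (-0.51, limma voom adjusted p = 0.00685).

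From 24 to 48 h 3 of 9 members were called, against 9.11% of all genes. The arm difference shifted by -1.02 for AREG, -0.97 for HBEGF and 0.67 for NRG1, with limma voom adjusted p of 2.65e-08, 5.78e-06 and 2.84e-05. NRG1 was not called on the log2(TPM + 1) scale (0.48, limma adjusted p = 0.0140). ERBB3, at 0.25, and EREG, at -0.47, fell just short (limma voom adjusted p = 0.0112 and 0.0158), and both passed when the untreated 24 h library numbered 2 was left out, which made 5 of 9. ERBB3 also passed without the TGFβ 0 h library numbered 1, and EREG without the untreated or TGFβ 0 h library numbered 2 or the TGFβ 24 h library numbered 3. From 8 to 48 h, across codes, 5 of 9 were called against 14% of all genes, ERBB3, AREG, EREG, HBEGF and NRG1. The shift for HBEGF was -1.95 (SE 0.099) and that for NRG1 1.05 (SE 0.091), with limma voom adjusted p of 9.82e-12 and 2.32e-08. The ERBB3 shift of 0.28 was not called without any 1 of 7 libraries of 8 and 48 h (limma voom adjusted p = 0.0103 to 0.0157) nor on the log2(TPM + 1) scale (0.09, limma adjusted p = 0.783). The EREG shift of -0.85 became -0.51 and lost its call when scaled to the reference genes (adjusted p = 0.0495).

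**Figure D4:**
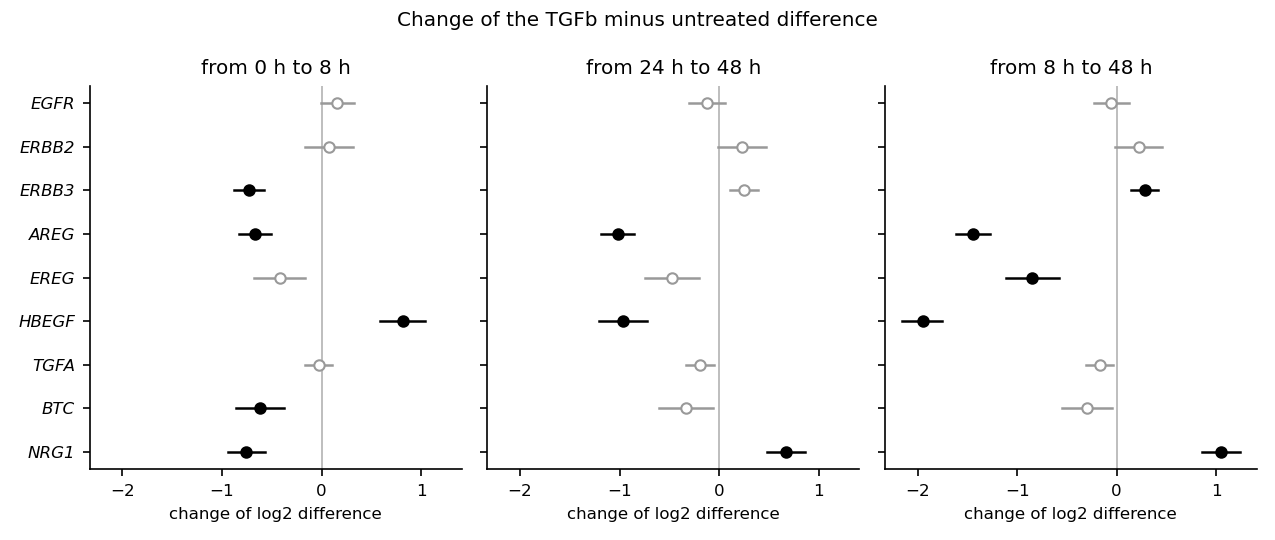
Change of the log2 difference between arms from 0 to 8 h, from 24 to 48 h and from 8 to 48 h for each member (limma voom), with 95% intervals; filled black symbols have an adjusted p below 0.01. HBEGF and NRG1 lie on opposite sides in each panel, at 0.82 and -0.76, at -0.97 and 0.67, and at -1.95 and 1.05.

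Within arms, the members also changed without TGFβ. In untreated cells 7 of 9 were called from 0 to 8 h, against 25.9% of all genes, with EGFR and EREG lower and ERBB3, AREG, HBEGF, BTC and NRG1 higher. In TGFβ-treated cells 7 of 9 were called over the same 8 h, against 33.8% of all genes, with ERBB2 and HBEGF higher and EGFR, ERBB3, AREG, EREG and NRG1 lower. Scaled to the reference genes, where the median of all genes over this interval was 0.12, the values of EGFR, ERBB3 and AREG in TGFβ-treated cells were -0.09, -0.16 and -0.24 and were not called (adjusted p = 0.520, 0.130 and 0.0358). In untreated cells EGFR at -0.33, HBEGF at 0.37, BTC at 0.42 and NRG1 at 0.28 also lost their calls under that scaling (adjusted p = 0.0161, 0.0122, 0.0211 and 0.0248). From 24 to 48 h 5 of 9 were called in untreated cells, against 28.4% of all genes, with AREG, EREG, HBEGF and TGFA higher and EGFR lower (0.26 when scaled to the reference genes). In TGFβ-treated cells it was 6 of 9, against 25.8% of all genes, with ERBB3, HBEGF, TGFA and NRG1 higher and EGFR (0.16 under that scaling) and AREG lower. NRG1 from 0 to 8 h in untreated cells was not called without the untreated 0 h library numbered 1 or 2 or the 8 h library numbered 3, nor was ERBB3 from 24 to 48 h in TGFβ-treated cells without the TGFβ 24 h library numbered 1 or the 48 h library numbered 1 or 3. AREG is the gene called in opposite directions in the arms in both intervals, at 0.33 and -0.34 from 0 to 8 h and at 0.40 and -0.62 from 24 to 48 h, of which the values of -0.34 and -0.62 became -0.24 and -0.11 and lost their calls when scaled to the reference genes.

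The remaining receptor and ligands of the family were measured at low levels, except NRG4. ERBB4 reached 0.126 TPM and NRG3 0.0241 TPM at most, and EPGN 0.773 TPM. EGF, the founding ligand, reached 2.54 TPM and was lower at 8, 24 and 48 h by log2 differences of -0.54, -0.56 and -0.57, and NRG4, an ERBB4 ligand, reached 27.9 TPM and was lower by -0.49, -0.48 and -0.61. NRG2 was lower at 24 and 48 h, with -0.93 and -1.30 (limma voom adjusted p = 0.00400 and 0.000131), at a level of at most 1.22 TPM. Of the 5 tested genes of this list, 0 were called higher and 3 lower at 48 h, against 16.1% and 16.4% of all genes.

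Of 10 genes that shed the ligands or limit shedding, 5 were called higher and 2 lower at 48 h, against 16.1% and 16.4% of all genes, with a median log2 difference of 0.32 against -0.01 for all genes. ADAM19, a metalloproteinase that can process neuregulin, was at 5.25, 5.25 and 4.73 TPM in untreated and 20, 19.9 and 19.5 TPM in TGFβ-treated libraries at 48 h. Its differences at 8, 24 and 48 h were 2.44, 2.60 and 2.04 (limma voom adjusted p = 6.75e-17 at 48 h). ADAM12 was also higher at all 3 times, and ADAM17, the main sheddase of the EGFR ligands, was at 0.35 and 0.33 at 24 and 48 h (limma voom adjusted p = 0.000164 and 0.000274). ADAM15 was lower, at -0.48 and -0.62 (limma voom adjusted p = 0.00194 and 0.000138). ADAM10 at 0.20 and ADAM9 at -0.09 were not called at 48 h (limma voom adjusted p = 0.0163 and 0.329). TIMP3, an inhibitor of ADAM17, showed the opposite pattern. Its untreated libraries held 221.8, 223.5 and 223.9 TPM and its TGFβ-treated libraries 34.1, 31.8 and 32.0 TPM at 48 h. The TIMP3 difference deepened from -1.30 at 8 h to -2.75 at 48 h (limma voom adjusted p = 5.09e-19).

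Of 21 adaptor and relay genes, 5 were called higher and 1 lower at 48 h, near the 32.6% of all genes called in either direction, with a median of 0.07. The largest difference upward was that of PLCG1, a phospholipase recruited by EGFR, at 0.39, and the one downward was that of SHC1, an adaptor of the RAS pathway, at -0.37. Of 18 tested receptor inhibitors and turnover genes, 3 were higher and 4 lower at 48 h, also near the 32.6% of all genes, with a median of 0.07. ERRFI1, an inhibitor of the EGFR kinase, was at 78.4, 81.6 and 79.9 TPM in untreated and 33.4, 29.5 and 31.9 TPM in TGFβ-treated libraries at 48 h, a difference of -1.31 (limma voom adjusted p = 1.41e-13). CBLB, a ubiquitin ligase of activated receptors, was at 9.12, 7.78 and 9.83 TPM against 21.2, 19.8 and 17.5 TPM, a difference of 1.22 (limma voom adjusted p = 1.53e-08). The arms of both genes were separate.

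Of 18 ERK feedback and early response genes, 9 were higher and 4 lower at 8 h, 8 higher and 7 lower at 24 h, and 4 higher and 7 lower at 48 h. Of all genes 16.4%, 29.3% and 32.6% were called at these times. The median moved from 0.25 at 8 h to -0.14 at 48 h, the latter smaller than the 0.38 by which scaling to the reference genes shifted all genes. The transcription factor gene ETV5 was higher throughout, at 0.82, 1.37 and 0.71, with 23.4, 26.8 and 26.5 TPM in untreated and 36.3, 38.1 and 40.3 TPM in TGFβ-treated libraries at 48 h. FOSL1, an AP-1 subunit gene, was lower at 24 and 48 h, at -0.66 and -1.10, with 58.3, 57.7 and 56.0 TPM against 27.8, 25.7 and 24.5 TPM at 48 h (limma voom adjusted p = 4.80e-08). Members of the same feedback families differed in direction, with SPRY1 at -1.02 and SPRY2 at 0.40 at 48 h, both called.

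**Figure D5:**
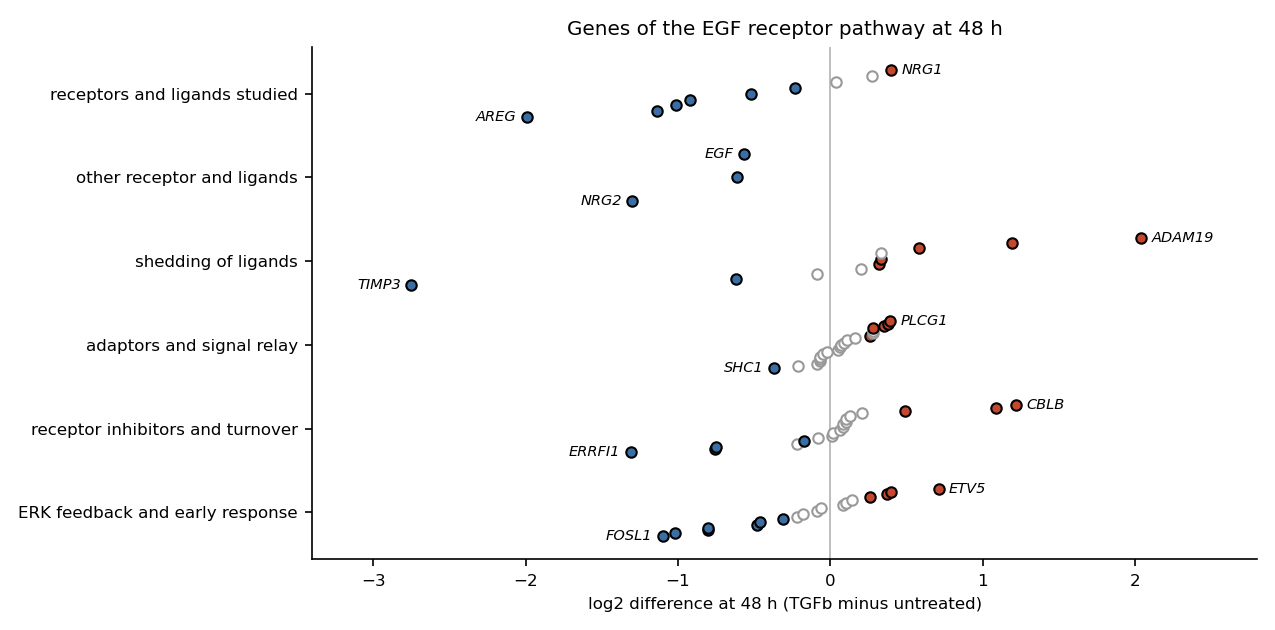
Log2 difference at 48 h, TGFβ-treated minus untreated, of the 9 members and of the tested genes of 5 pathway lists that reached 1 TPM, 1 symbol per gene; filled symbols have a limma voom adjusted p below 0.01 (red higher, blue lower). AREG at -1.99 and TIMP3 at -2.75 lie farthest to the left and ADAM19 at 2.04 farthest to the right, and scaled to the reference genes the median of all genes is 0.38.

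The genes whose level ran most like that of a member were sought for ERBB3 and AREG, the receptor and the ligand with the lowest F-test p. Among 13909 genes averaging 1 TPM or more over the 24 libraries, the highest Pearson correlations of log2(TPM + 1) with ERBB3 were those of KCTD6 (0.942), CXADR (0.924) and ARHGAP29 (0.922). With AREG they were those of SHISA3 (0.961), FAM3C (0.957) and SDC4 (0.949). The points share arms, times and file codes, and the values are a description.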

How the data were processed

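RNA-Seq of SK-MES1 cells covered 24 libraries in 8 groups of 3 (untreated or TGFβ, at 0, 8, 24 and 48 h), grouped by the labels. Per the labels, the authors quantified reads with kallisto 0.43.0 (GRCh38) and deposited 1 table per library with 173259 transcripts, holding estimated counts, which are not normalized and need not be whole, and TPM. The effective length deposited by the authors is a length per transcript and was used here only to build length-scaled counts. No aligner filter, strand setting or pooling is given in the sources used here, and replicates were not pooled in the tables. The 4 codes in the file names are not explained there. The study calls the triplicates biological replicates, but no culture is named, so p-values measure the spread between these libraries.

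Transcripts were summed to genes with GENCODE v44: 155518 of 173259 (89.8%) matched, carrying 94.82% to 95.18% of counts. Replicates of a group differed by a chi-square per gene of at least 3.17, so none was counted as a repeat. Gene sums of the estimated counts were rounded, scaled by TMM (edgeR 4.0.16) and fitted with limma voom (limma 3.58.1, R 4.3.3) with 1 mean per group over all 24 libraries, as the methods of the study name limma voom, a count filter of 10 and an adjusted p below 0.01. On simulated data the F-test recovered 198 of 200 changed genes with 0 false calls among 17190. The simulated log2 changes were at least 1 in size, equal at all treated times and free of offsets between file codes. Recovery of smaller changes, or of those that vary with time, was not tested. Depth was 46613589 to 77964234 estimated counts per library (median 54120879). At this depth the lowest member count was 109. Each SD is over 3 libraries, whereas each SE is that of the limma voom difference, with a spread per gene estimated over all 24 libraries. Alternatives comprised edgeR quasi-likelihood, DESeq2 1.42.0, other library scalings, filters, log2(TPM + 1) and log2(TPM + 0.1) with limma, length-scaled and protein-coding counts, the replicate block, other thresholds, fits to the compared time points and leaving out each library. The comparison from 8 to 48 h, the fit without both 0 h libraries numbered 2 and the scaling to GUSB, HPRT1 and GAPDH were added after the data were seen.

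The members and all gene lists were chosen with earlier results of these data known. All members are described, with transcripts at 10% or more of a member's TPM in a group named and mostly given by their share, and per list the gene with the largest called difference in each direction at 48 h; ADAM9, ADAM10, ADAM12, ADAM15, ADAM17, SPRY1, SPRY2, EGF and NRG4 were named after their values were seen. A planned scaling and a response gene are not reported here. Figures were drawn with matplotlib.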

Additional observations from a re-analysis of the deposited data

Results flagged for a closer look

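For 6 members the difference between arms itself differed between time points that share file codes, or between 8 and 48 h, by limma voom with an adjusted p below 0.01. Of all genes 7.88% were called from 0 to 8 h, 9.11% from 24 to 48 h and 14% from 8 to 48 h. The share of all genes called in any of these tests is not given here, so the count of 6 has no such share beside it. The difference between TGFβ-treated and untreated cells shifted from 0 to 8 h by -0.73 for ERBB3, -0.67 for AREG, 0.82 for HBEGF, -0.62 for BTC and -0.76 for NRG1 on the log2 scale. From 24 to 48 h it shifted by -1.02 for AREG, -0.97 for HBEGF and 0.67 for NRG1. From 8 to 48 h it shifted by 0.28 for ERBB3, -1.44 for AREG, -0.85 for EREG (-0.51 and no longer called when scaled to the reference genes), -1.95 for HBEGF and 1.05 for NRG1. On the log2(TPM + 1) scale the ERBB3 shift from 8 to 48 h was 0.09 and not called. On that scale the shifts of ERBB3 and BTC from 0 to 8 h and of NRG1 from 24 to 48 h were not called either. HBEGF and NRG1 are the members whose called differences at 8 and 48 h have opposite signs, at 0.94 and -1.01 for HBEGF and at -0.65 and 0.40 for NRG1. The NRG1 difference at 48 h was not called on the log2(TPM + 1) scale (0.21, limma adjusted p = 0.0717). Nor was it with length-scaled counts (0.25, limma voom adjusted p = 0.0262), and the arms overlapped in TPM. Groups of 3 libraries are too small for a test of single outlying libraries.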

How the results depend on the processing

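The 17 called differences between arms at 8, 24 and 48 h were recomputed under all alternatives, giving 680 values, of which 658 kept direction and call, 20 lost the call and 2 reversed. Among these is the looser threshold, an adjusted p of 0.05, under which no call could be lost. On leaving out each library in turn, 406 of 408 values kept the call and 2 lost it. Most of the libraries left out were not in the groups compared, and leaving those out changed mainly the estimate of the spread. The reversals that follow arose when libraries were scaled to the reference genes GUSB, HPRT1 and GAPDH, a choice made after seeing the data, which set the median of all genes to 0.35 at 24 h and 0.38 at 48 h between arms and to 0.49 and 0.51 from 24 to 48 h in untreated and TGFβ-treated cells: the 24 h difference became 0.32 for HBEGF, 0.33 for TGFA and 0.09 for NRG1, that of TGFA at 48 h 0.16, and the average over times 0.23 for HBEGF, 0.16 for TGFA and 0.09 for NRG1, while from 24 to 48 h EGFR, ERBB3 and NRG1 in untreated cells became 0.26, 0.43 and 0.37 and EGFR in TGFβ-treated cells 0.16. With that scaling 4 members instead of 7 were called from 0 to 8 h in untreated cells and 4 instead of 7 in TGFβ-treated cells, and 8 instead of 5 from 24 to 48 h in untreated cells. Under other settings a few values near 0 that were not called also changed sign, among them ERBB2 at 24 h, which ran from -0.05 to 0.15, and EGFR at 48 h, from -0.05 to 0.06.

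The counts of members in this paragraph and the one before stand without the share of all genes under each setting. They describe the settings and are no result about the members. On leaving out 1 library, the number of all genes called in the change from 24 to 48 h itself ran from 1147 to 1921. For the change of the arm difference from 0 to 8 h, 3 members instead of 5 were called with log2(TPM + 1), log2(TPM + 0.1) and length-scaled counts. From 24 to 48 h, 5 instead of 3 were called with DESeq2, an adjusted p of 0.05 and without both 0 h libraries numbered 2, and 3 to 5 on leaving out 1 library. From 8 to 48 h, 8 instead of 5 were called in a fit to those time points alone. With an added 1.5-fold minimum 4 members were called at 48 h and 4 in the F-test, 1 in untreated and 2 in TGFβ-treated cells from 0 to 8 h, and 2 and 1 from 24 to 48 h. With the replicate number as a replicate block, 0, 6, 5 and 8 members were called at 0, 8, 24 and 48 h, and 5 instead of 3 in the change from 24 to 48 h. The sources used here name nothing that same-numbered libraries share beyond the number. Deviations of the 12 pairs correlated by -0.053 to 0.271, above 0.1 in 4, all of them at 0 or 24 h. At both times the pair numbered 2 was highest, at 0.262 and 0.271. Of the 24 libraries, 11 correlated best with their own number. The 95% interval of the EGFR difference at 24 h reached from 0.03 to 0.28, which limits what 3 libraries per group can resolve.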
